A study of Mus musculus with 4 samples.

Results

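The carbonic anhydrase genes Car2, Car3, Car4, Car8, Car11, Car13 and Car14 are described here in the heart ventricles of mouse embryos with and without HDAC2, a class I histone deacetylase. These 7 genes are among the 18193 that are named by a probe set of 1 gene on the Affymetrix MOE430v2 array, and all 15 probe sets whose annotation names 1 of the 7 were read. The family was chosen by the signal of Car3, which was much lower in the embryos without HDAC2. The contrast between the genotypes therefore chose the members, and it is given for them as a description with no test. The wild-type group (WT) held 2 arrays and the group of HDAC2-deficient littermates (KO) held 2 arrays. All embryos were at embryonic day 17.5 and of a C57BL/6 X SV129 cross, and ventricles of 2 animals were pooled for each WT array and of 3 animals for each KO array. The kind of Hdac2 mutation and the sex of the embryos are not given in the sources used here. Sex-linked transcripts differed between the groups, as given below. Groups follow the sample titles, since the source field calls the tissue wild-type for KO as well. Because pools were measured, the spread between arrays covers these pools and may be partly technical.

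Carbonic anhydrases are zinc enzymes that interconvert carbon dioxide and bicarbonate, releasing or taking up a proton, and so link respiration to pH control and to ion transport. The cytosolic members include the highly active Car2, the slow Car3, which is abundant in slow skeletal muscle, liver and fat, and Car13. Car4 is held on the outer face of membranes by a lipid anchor and is known from capillary endothelium and muscle membranes, and Car14 spans the membrane. Car8 and Car11 belong to the carbonic anhydrase-related proteins, which keep the fold of the family but lack the enzyme activity.

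The values are MAS5 signals, which are brightness values on a linear scale, with a call of Present, Marginal or Absent from a detection p-value. Signals of different probe sets are not on a common scale, so each probe set was compared with itself across arrays. The Hdac2 transcript, which checks the labels, gave signals of 1189 and 1421 in WT against 31.4 and 21.0 in KO at its brightest probe set, at least 50.6-fold lower in KO. Between 42.4% and 43.7% of probe sets were called Present on each array. All 16 genes of a cardiomyocyte marker list were Present on all arrays, with summed signals of 156418 to 162822, and no gene of an 8-gene lung epithelium list was called Present on any array. The 3' to 5' signal ratio of the actin control, which follows the length of the labelled RNA, stood at 1.85 and 2.32 in WT versus 2.75 and 2.42 in KO, and its part in the results was not tested. In whole ventricle, fewer cells of a type and less RNA per cell cannot be told apart.

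Of the 15 member probe sets, 5 were called Present on all 4 arrays and 5 on none. The filter for the fit, a Present call on both WT arrays or both KO arrays, was passed by 8 probe sets of 5 genes. Car11 and Car13 had no probe set that passed. Car2 passed through KO alone, and 1460256_at of Car3 and 1424958_at of Car8 passed through WT alone. Of these 8 probe sets, 3 were past an adjusted p of 0.05 in limma, both probe sets of Car3 lower and 1 of Car8 higher, where the share over all 19065 probe sets tested was 1.34% (0.96% lower and 0.383% higher in KO). At 4 of the 8 the signals of the 2 groups did not overlap, against 47.5% of all probe sets tested. Since the same contrast chose the family, nothing is read from these counts.

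**Figure D1:**
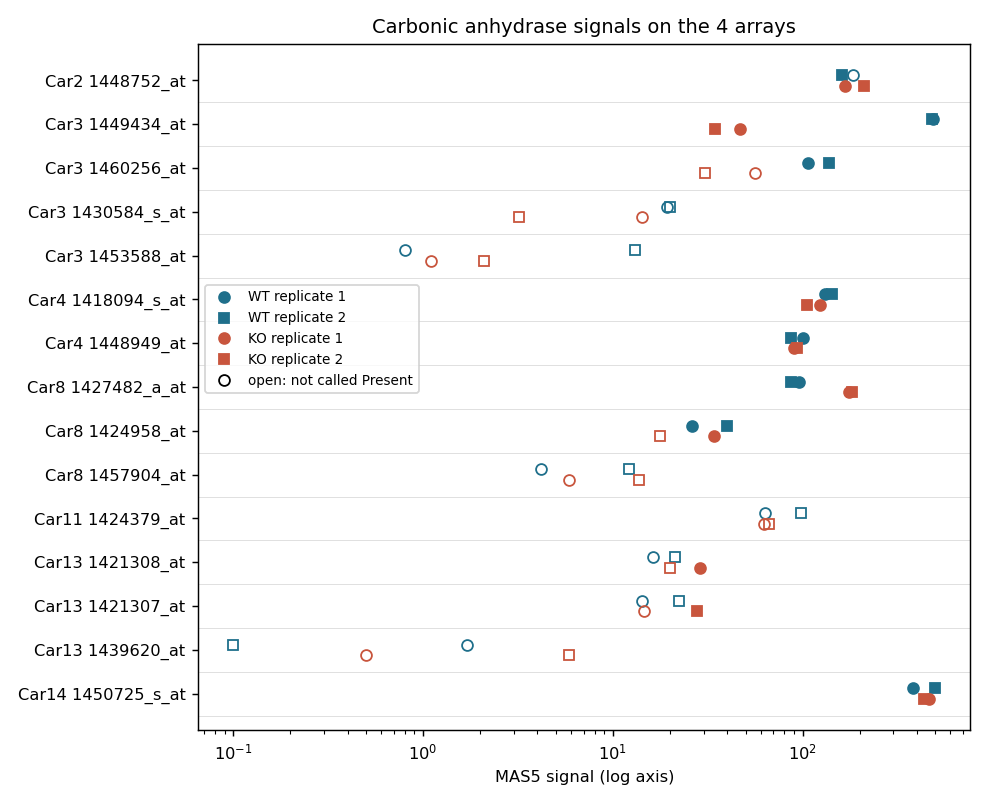
MAS5 signal (log axis) of all 15 carbonic anhydrase probe sets on the 2 WT and 2 KO arrays, with filled symbols for Present calls. The WT and KO symbols stand far apart at Car3 1449434_at, less so at Car3 1460256_at and Car8 1427482_a_at, and lie close together at Car2, Car4 and Car14.

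Car3 had 4 probe sets, of which 2 were detected. At 1449434_at the signals were 486 and 478 in WT against 46.9 and 34.5 in KO. The WT arrays lay close together and both KO arrays were far below them. All 4 arrays called this probe set Present, with a detection p-value of 0.000244 on both WT arrays and of 0.0303 and 0.0461 in KO. At this probe set, the KO signal was thus near the limit of detection but not beyond it. The log2 difference, KO minus WT, was -3.58 ± 0.20 (SE of the fit, n = 2 arrays per group), a signal 12.0-fold higher in WT. The spread was uneven, with an SD of 0.016 between the log2 signals of the WT arrays and of 0.31 between those of KO.

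At 1460256_at, the signals of Car3 were 107 and 138 in WT against 56.0 and 30.7 in KO. The groups did not overlap here either. WT was Present on both arrays and KO Absent on both, so the fold is a bound. The signal was at least 2.93-fold lower in KO, with a fitted log2 difference of -1.55 ± 0.30 (n = 2 arrays per group). Whether the probe sets differ in the size of the change cannot be read from a bound. The remaining Car3 probe sets, 1430584_s_at with signals of 19.2 and 19.9 in WT versus 14.3 and 3.2 in KO, and 1453588_at with 0.8 and 13.1 in WT against 1.1 and 2.1 in KO, were Absent on all arrays and carry no fold.

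The deposited signal log ratio, a second value that MAS5 forms for each array against a baseline array, also placed both WT arrays above both KO arrays at Car3. At 1449434_at it was 5.5 and 5.6 in WT versus 2.3 and 2.2 in KO, and at 1460256_at it was 2.8 and 2.7 in WT against 1.5 and 1.7 in KO. No source used here names the baseline array, so only differences between the arrays can be read. These ratios come from the same hybridisations and are not a further replicate.

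Car2, the cytosolic enzyme of high activity known from red cells and osteoclasts, gave signals of 184 and 161 in WT against 166 and 211 in KO at its 1 probe set. The groups overlapped, and the log2 difference was 0.12 ± 0.19. The 4 arrays alternated in order, the lowest being in WT and the highest in KO, and with KO replicate 2 left out the difference turned to -0.052. WT replicate 1 was called Absent at 184 while WT replicate 2 was Present at 161, with detection p-values of 0.0676 and 0.0461 on either side of the limits of the call. The brighter WT array thus had the weaker call.

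Car13, the other cytosolic member, was at the edge of detection. Its 3 probe sets gave 1 Present call each at 1421308_at, on KO replicate 1, and at 1421307_at, on KO replicate 2. The signals were 16.2 and 21.3 in WT against 28.8 and 20 in KO at 1421308_at. At 1421307_at they were 14.3 and 22.2 in WT against 14.5 and 27.6 in KO. The groups overlapped at both, and the dim 1439620_at ranged from 0.1 to 5.9 with no Present call.

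The membrane-bound members differed little between the genotypes. Car4 at 1418094_s_at gave 131 and 142 in WT against 123 and 105 in KO, with all arrays Present. Both KO arrays lay below both WT arrays, by a log2 difference of -0.27 ± 0.20. At 1448949_at, Car4 gave 100 and 87.1 in WT against 89.8 and 93.2 in KO, the KO arrays lying between the WT arrays. The difference there was -0.029 ± 0.22, and its sign turned to 0.064 with quantile normalization and to 0.40 in the signal log ratio.

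Car14, which spans the membrane, gave 380 and 499 in WT versus 465 and 434 in KO and was Present on every array. Both KO arrays fell between the WT arrays, and the log2 difference was 0.044 ± 0.15. The distance between the WT pools was larger than that between the genotypes, and the difference ran from -0.15 without WT replicate 1 to 0.24 without WT replicate 2.

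Among the members that lack enzyme activity, Car8, a protein known to bind the inositol trisphosphate receptor of the endoplasmic reticulum, was higher in KO at its brightest probe set. Signals at 1427482_a_at were 96.0 and 87.1 in WT against 175 and 183 in KO, with a detection p-value of 0.000244 on every array. The groups did not overlap, and the spread within each group was small beside the gap, with an SD of 0.099 between the log2 signals in WT and of 0.044 in KO. The log2 difference was 0.97 ± 0.19, or 1.95-fold, and stayed between 0.90 and 1.04 with any 1 array left out.

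The dimmer Car8 probe set did not show that difference. At 1424958_at the signals were 26.1 and 40.1 in WT against 33.9 and 17.7 in KO, with KO replicate 2 Absent. The groups overlapped, and the difference of -0.40 ± 0.42 turned to 0.067 without KO replicate 2. The last Car8 probe set, 1457904_at, was Absent on all arrays with signals of 4.2 to 13.7. Car11, a secreted relative known from brain, was Absent on every array at its 1 probe set, with signals of 63.3 and 97.4 in WT against 62.7 and 66.6 in KO.

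**Figure D2:**
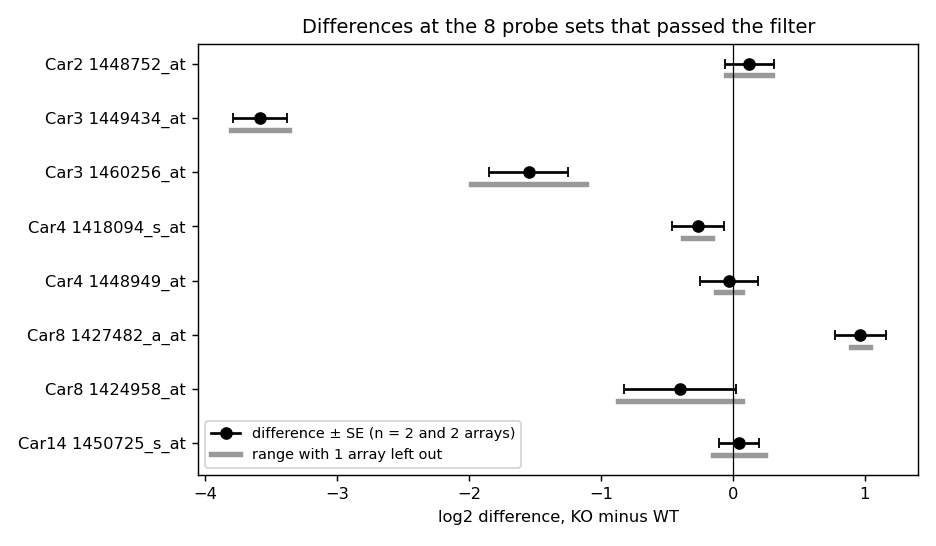
Log2 difference, KO minus WT, at the 8 member probe sets that passed the filter, with the SE of the fit (n = 2 arrays per group) and, in grey, the range with 1 array left out. Car3 at -3.58 and -1.55, Car8 1427482_a_at at 0.97 and Car4 1418094_s_at at a smaller -0.27 keep their side of 0 in every case. These are the probe sets whose groups do not overlap, so leaving out 1 array could not turn their sign. The grey ranges of Car2, Car4 1448949_at, Car8 1424958_at and Car14 span 0.

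Car13, Car1, Car3 and Car2 lie in this order on mouse chromosome 3 in assembly GRCm38.p6, which was used for gene order alone, with no other gene between Car3 and Car2. Car2, the gene next to Car3, had overlapping groups and a log2 difference of 0.12 where Car3 had -3.58. Car1, a red cell enzyme, was Absent on all arrays, with signals of 17.8 and 29.9 in WT against 20 and 13.8 in KO. On the far side of Car13, Rbis gave 1043 and 924 in WT versus 903 and 970 in KO, and E2f5, a transcription factor of the cell cycle, gave 188 and 178 in WT against 242 and 196 in KO. Both KO arrays were above both WT arrays at E2f5, by a log2 difference of 0.25 ± 0.17 (adjusted p = 0.509 in limma), and the groups overlapped at Rbis (-0.069 ± 0.12, adjusted p = 0.821).

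**Figure D3:**
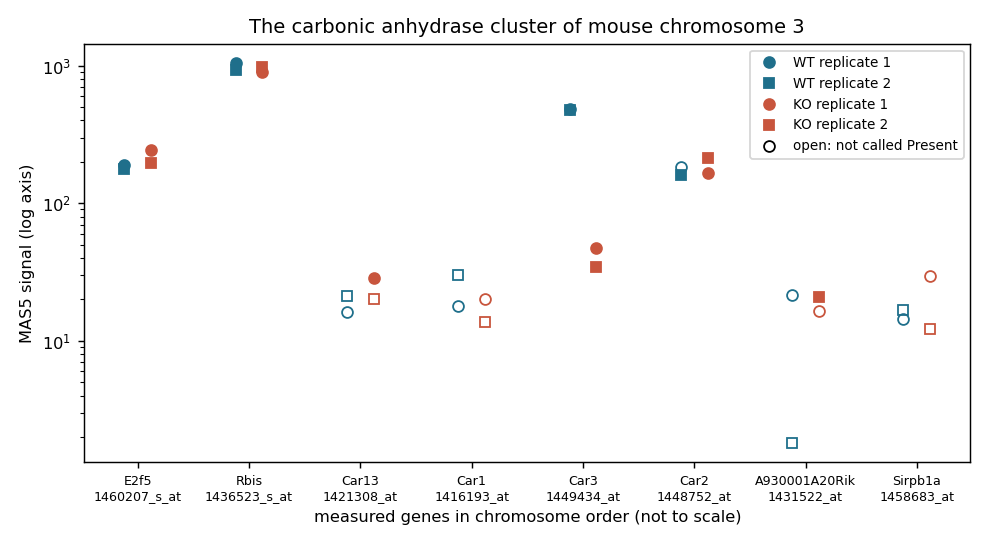
MAS5 signal (log axis) of the measured genes of the chromosome 3 carbonic anhydrase cluster and their neighbours, in gene order and not to scale, with filled symbols for Present calls. Car3 stands at 486 and 478 on the WT arrays and at 46.9 and 34.5 on the KO arrays, while the Car2 symbols of both groups lie between 161 and 211.

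Car4, Car8, Car11 and Car14 lie apart from this cluster. Taking up to 2 measured genes on either side of each of the 7 members gave 21 neighbours that are no members, of which 12 passed the filter. None of the 12 passed the adjusted threshold in limma, and 1 had an unadjusted p under 0.05. The share of all probe sets under that unadjusted threshold was not taken. Nothing is therefore read from such counts, here or for the lists below. The 1 gene was Usp32, a ubiquitin protease beside Car4, with 500 and 525 in WT against 389 and 413 in KO (-0.35 ± 0.13, adjusted p = 0.225). Dbp, a circadian transcription factor next to Car11, had a difference of -0.32 ± 0.17 (adjusted p = 0.393). Rab2a, a trafficking GTPase near Car8, had 0.20 ± 0.10 (adjusted p = 0.376). Aph1a, a subunit of gamma-secretase next to Car14, had -0.11 ± 0.17 (adjusted p = 0.795).

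Of the 9 carbonic anhydrase genes outside the 7, which together had 15 probe sets, Car7 alone passed the filter. Car7, a cytosolic enzyme known from neurons, gave 116 and 190 in WT against 96.6 and 109 in KO at 1443824_s_at. Both KO arrays lay below both WT arrays, but the difference did not pass in limma (-0.53 ± 0.24, adjusted p = 0.303), and it ran from -0.89 without WT replicate 1 to -0.18 without WT replicate 2. The other Car7 probe sets were Absent on all arrays. Car9, the hypoxia-induced member, was Present on KO replicate 1 alone, with 30.6 and 64.2 in WT against 64 and 34.4 in KO. Car10, another member without enzyme activity, was Present on WT replicate 1 and KO replicate 1 at 1431288_at, with 99.4 and 84.1 in WT against 78.5 and 82.3 in KO. Car1, Car5a, Car5b, Car6, Car12 and Car15 had no Present call.

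The receptor phosphatases Ptprg and Ptprz1, whose extracellular part holds a carbonic anhydrase-like domain, were read with the family. Ptprg stood at 0.20 ± 0.18 at its brightest probe set (adjusted p = 0.622). At 1456070_at, also Present on all 4 arrays, Ptprg gave 52.3 and 47.1 in WT against 24.9 and 29.2 in KO, the opposite direction (-0.88 ± 0.33, adjusted p = 0.222), and at 1450122_at it stood at -0.12 ± 0.28 (adjusted p = 0.882). Ptprz1 stood at -0.56 ± 0.36 (adjusted p = 0.474). With Car7, these are the 3 tested genes of the list of other family members. At their brightest probe sets, 0 of the 3 passed in limma and 1 had an unadjusted p under 0.05.

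Genes that carry bicarbonate, protons and lactate across membranes work beside carbonic anhydrases. Of the 29 on the array, 12 were tested, and 0 passed in limma, with 3 at an unadjusted p under 0.05. Their median log2 difference was -0.099, where the median of all 10184 genes tested was 0.035 and 1.31% of those genes were called. That share is for the adjusted threshold, and none was taken for the unadjusted p, so nothing is read from the count of 3. The 3 were all lower in KO. Tesc, a calcium-binding partner of the sodium-proton exchanger, gave 786 and 818 in WT against 566 and 605 in KO (-0.46 ± 0.12, adjusted p = 0.0909). Bsg, the chaperone of the lactate carriers, gave 5203 and 5286 in WT against 4475 and 3420 in KO (-0.42 ± 0.12, adjusted p = 0.0993). Slc16a3, a lactate exporter of glycolytic muscle, had -0.37 ± 0.13 (adjusted p = 0.209).

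Bsg passed with KO replicate 1 left out (-0.62 ± 0.093, adjusted p = 0.00284). Slc9a3, an epithelial sodium-proton exchanger, stood at 0.54 ± 0.30 (adjusted p = 0.409). Among the 9 tested enzymes that fix bicarbonate, 0 passed in limma and 0 had an unadjusted p under 0.05, with a median of -0.014. Pcca, a subunit of propionyl-CoA carboxylase, had the smallest p (0.24 ± 0.13, adjusted p = 0.372), and Pcx, pyruvate carboxylase, stood at 0.23 ± 0.17 (adjusted p = 0.543).

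Several tissues known to make carbonic anhydrases were followed with marker lists. Skeletal muscle is a known source of Car3, and the list read for it was one of fast and embryonic muscle. Slow muscle, where Car3 is abundant, had no list of its own. Of the 14 tested genes, 11 were lower in KO past the adjusted threshold in limma and 0 were higher past it. The median was -3.78. Of the 14, 9 passed the filter through WT alone, where they are high. The count and the median thus rest largely on genes that the filter favours to be lower in KO. Of the 5 that were Present on all 4 arrays, 4 fell past that threshold, namely Myl1, Myh8, Klhl41 and Tnni2. The remaining 1, Casq1, gave 1662 and 1697 in WT against 2268 and 1903 in KO. It was higher in KO without passing (0.31 ± 0.11, adjusted p = 0.209 in limma), the only positive difference among the tested genes of the list. The whole list summed to signals of 15880 and 14996 in WT against 3697 and 3408 in KO. Its myogenic factors Myod1, Myog, Myf5 and Myf6 had no Present call on any array. Among its genes, Mylpf, a fast myosin light chain, gave 2972 and 2654 in WT against 80.4 and 62.5 in KO (at least 39.6-fold lower). Atp2a1, the calcium pump of fast muscle, gave 499 and 554 in WT against 35.2 and 102 in KO (at least 8.78-fold lower). These 2 genes were Absent on both KO arrays and passed the filter through WT alone, so no p-value is given for them. Both differences ran the same way in the same arrays, and the part of skeletal muscle in that of Car3 was not tested.

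Fat and liver are also known for Car3. In the adipocyte list, 0 of 3 tested genes passed in limma and 0 had an unadjusted p under 0.05. Its summed signals were 12920 and 13473 in WT against 12820 and 13474 in KO, carried by Lpl and Fabp4, which heart muscle and its vessels also express. Adipoq, Cidec, Lep, Pparg, Retn and Ucp1 had no Present call. In the liver list, 0 of 3 passed and 0 had an unadjusted p under 0.05, Afp, Ahsg, Apoa1, Apob, Fgb and Fgg had no Present call, and the summed signals were 323 and 325 in WT against 275 and 303 in KO.

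For Car2, the lists of osteoclast and bone and of erythroid cells were read. In the bone list 4 of 5 tested genes fell, namely Ibsp, Dmp1, Mmp13 and Ctsk. The first 3 were Absent on both KO arrays and passed the filter through WT alone, so Ctsk was the 1 that fell among genes Present on all 4 arrays. Sp7, also Present on all 4, had overlapping groups, with 85.4 and 56.4 in WT against 61.9 and 59.1 in KO (-0.20 ± 0.27, adjusted p = 0.771 in limma). Without either WT replicate fewer genes fell, 2 without WT replicate 1 and 3 without WT replicate 2. Ctsk, the cathepsin of osteoclasts, gave 172 and 166 in WT against 70.1 and 91.0 in KO (-1.08 ± 0.21, adjusted p = 0.0206), and with WT replicate 1 left out its difference was similar but did not pass (-1.06, adjusted p = 0.0840). Other osteoclast genes, Acp5, Atp6v0d2, Dcstamp, Ocstamp and Oscar, had no Present call. In the erythroid list 1 of 4 tested genes rose, the embryonic globin Hbb-y, which was Absent on both WT arrays and passed the filter through KO alone. It was at least 4.83-fold higher in KO, and with KO replicate 1 left out its fitted difference went from 2.27 to 2.03. Having entered through KO alone, Hbb-y was favoured by the filter to be higher in KO, so nothing is read from its call. Car2 itself had overlapping groups.

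For Car4, 0 of 10 tested genes of the endothelium list passed in limma and 1 had an unadjusted p under 0.05, with a median of -0.033. That gene was Kdr, a receptor of vascular growth factor (0.46 ± 0.16, adjusted p = 0.187). All 10 genes were Present on all arrays, with summed signals of 4030 to 4283. In the list of Schwann cells and neurons, 0 of 2 tested genes passed in limma and 1 had an unadjusted p under 0.05, Sox10 at -0.51 ± 0.18 (adjusted p = 0.205). For the cardiomyocyte list, 0 of 16 passed and 2 had an unadjusted p under 0.05, Nkx2-5 at -0.30 ± 0.13 (adjusted p = 0.280) and Actn2 at -0.20 ± 0.085 (adjusted p = 0.288).

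**Figure D4:**
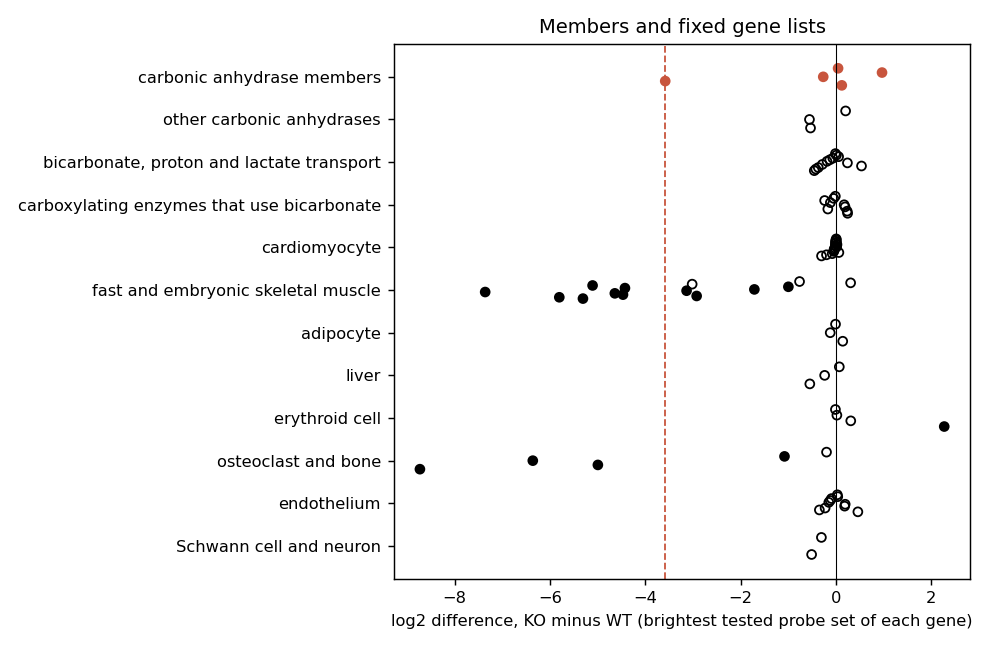
Log2 difference, KO minus WT, at the brightest tested probe set of each carbonic anhydrase member (orange) and of each gene of the marker and pathway lists, filled black where limma's adjusted p is under 0.05. The dashed line marks Car3 at -3.58. It falls inside the range of the fast and embryonic skeletal muscle genes, where 9 of 14 passed the filter through WT alone. The range of the osteoclast and bone genes reaches past the line only through Ibsp, Dmp1 and Mmp13, which passed through WT alone. Ctsk and Sp7, Present on all 4 arrays, stand at -1.08 and -0.20. The line lies outside the ranges of the cardiomyocyte and endothelium genes.

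The genes most like Car3 were found by the distance between log2 signals centred on each probe set's mean over the 4 arrays. Nearest to 1449434_at was Myl1, a fast myosin light chain (distance 0.69), with signals of 3082 and 2945 in WT against 419 and 377 in KO. Next were Myh1, a fast myosin heavy chain, and Mybpc1, the slow myosin-binding protein C, both at 0.73. Mybpc1 gave 756 and 751 in WT against 39.7 and 41.7 in KO. Then came Tpm2, the beta tropomyosin (0.78), Ddo, an oxidase of D-aspartate (0.96), Myh3, the embryonic myosin heavy chain (0.97), Myot, a Z-disc protein (1.03), and Prkar2a, a regulatory subunit of protein kinase A (1.38). These were ranked on the contrast that chose Car3, over 4 arrays, so the ranks describe the pattern and test nothing.

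**Figure D5:**
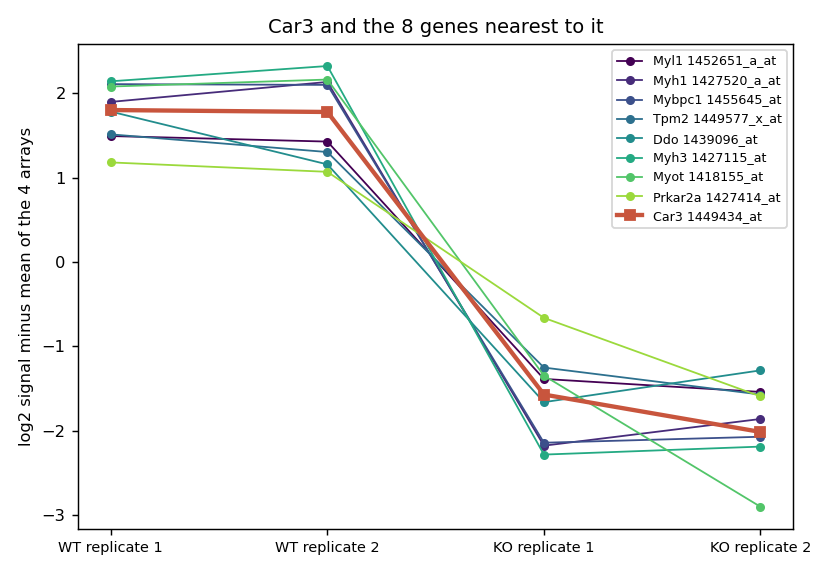
Log2 signal minus the mean of the 4 arrays for Car3 1449434_at (orange squares) and the 8 genes nearest to it, with lines joining the points of a gene. All 9 profiles are high on both WT arrays and low on both KO arrays, and the closest to Car3 is Myl1 at a distance of 0.69.

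Around the second detected Car3 probe set, 1460256_at, a different mix was nearest, in which KO replicate 2 was lower than KO replicate 1. It was led by Hif3a, a hypoxia-inducible factor subunit (distance 0.27), and Cenpb, a centromere protein (0.29), and went on with Eif2s3y (0.31), Tmod4, a tropomodulin of skeletal muscle (0.35), Arhgap45, Rian, Kdm5d and the dim Hdac2 probe set 1439704_at (0.42). Eif2s3y and Kdm5d are Y-linked. Eif2s3y gave 431 and 449 in WT versus 240 and 126 in KO, and Xist, named after its values were seen, gave 80.5 and 90.1 in WT against 548 and 794 in KO at 1436936_s_at. The groups did not overlap at either transcript. At 1427262_at, Xist was Absent in WT (1.3 and 6.1) and Present in KO (414 and 797), at least 108-fold higher in KO. Genotype and this sex-linked difference run together on these arrays and cannot be told apart for Car3, Car8 or the lists. The part of the sex-linked difference in that of Car3 was not tested.

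Nearest to Car8 1427482_a_at were Alad, an enzyme of haem synthesis (distance 0.083), with 228 and 211 in WT against 392 and 430 in KO, then Wdr19, a protein of cilia (0.12), and Tob2, an antiproliferative protein (0.14). These 3 genes were also higher in KO, with log2 differences of 0.90, 0.89 and 0.86. Maged2 was nearest to Car2 (0.021), Zfp317 to Car4 1418094_s_at (0.022) and Cdk2ap2 to Car14 (0.012). As for Car3, these ranks over 4 arrays are a description with no test.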

How the data were processed

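Total RNA of pooled ventricles (6 µg) was labelled with biotin and hybridised to 4 arrays, per the labels' protocols. The deposited signal is an intensity on a linear scale. Per the submitters' processing notes the authors used MAS5, whose version is not given in the sources read here. Per the file headers, the deposited files also hold a detection p-value with its call and a signal log ratio, on a log2 scale, whose baseline array is not named. The 2%-trimmed mean of the deposited signals was 150 on each array, so no further scaling was applied.

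Of 45101 probe sets, 64 controls were left out. Names came from the platform annotation, where 34945 probe sets name 1 gene, and symbols were updated with GRCm38.p6 gene identifiers. The log2 signals were fitted with limma 3.58.1 in R 4.3.3 (variance trend, genotype as sole factor) over the 19065 probe sets with Present calls on both WT arrays or both KO arrays, with two-sided p-values adjusted by Benjamini-Hochberg over all of them. The 4 signals of 0 were set to 0.1, a step that was not planned. Differences are KO minus WT ± the moderated SE. With no Present call in a group, the fold is "at least": each array of that group entered at its own signal or, where higher, the lowest signal with a Present call on that array. For lists, each gene entered at its brightest tested probe set. The fit was tested on simulated data, drawn with normal noise at the fit's own variances. That test cannot show whether those variances hold for these arrays. The members, lists and naming rule were chosen with earlier results of these data known: all members and family genes, the called genes of each list with at most 4 others, up to 2 measured neighbours on either side, and the 8 (Car3) or 3 nearest profiles. With 2 arrays per group, their number limits the precision.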

Additional observations from a re-analysis of the deposited data

How the results depend on the processing

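Over 14 alternatives, Car3 and Car8 1427482_a_at kept their direction wherever they could be fitted, as did Car4 1418094_s_at with its smaller difference. Their groups do not overlap, so most of these settings could not turn the sign. That holds for leaving out 1 array, for the offsets, for the replicate block and for changes of the variance model or filter. Offsets of 16 and 64 gave Car3 1449434_at differences of -3.14 and -2.39 and Car8 of 0.86 and 0.64, and the offset of 64 gave -0.80 at Car3 1460256_at, since an offset shrinks dim signals. With the signal log ratio they were -3.30 for Car3 1449434_at and 0.65 for Car8. With 1 array left out, Car3 1449434_at ran from -3.80 to -3.36 and 1460256_at from -1.98 to -1.12. Requiring Present on all 4 arrays left out Car2, Car3 1460256_at and Car8 1424958_at.

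The count of probe sets past the threshold, 73 higher and 183 lower, was 7 and 30 without the filter, 4 and 19 without a variance trend, and 0 and 1 with the signal log ratio. With 1 array left out it ran from 48 to 222 higher and from 110 to 428 lower. The cause was not tested. Same-numbered pools did not deviate together (r = -0.011 over 19065 probe sets). The labels do not say what the numbers mark, and this check cannot settle whether the pools were paired. A replicate block gave 271 higher and 450 lower, and 2 lower genes, Tesc and Bsg, in the transport list (0 to 1 with 1 array left out). The list of fast and embryonic skeletal muscle had 4 lower genes with Present on all 4 arrays, 6 without the filter, 5 without a trend and 1 with the signal log ratio. The bone list had 1, 1 and 0 with Present on all 4 arrays, without the filter and with the signal log ratio, and 2 to 4 with 1 array left out. The erythroid gene was lost, leaving 0, under those 3 settings and without a trend (0 to 1 with 1 array left out).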
